A study of Mus musculus with 8 samples.

Results

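Transcripts of mesothelial cells were measured in RNA-seq libraries of mouse liver cells sorted as Gli1+ peribiliary mesenchymal cells or as stellate cells. The 8 genes were Msln, Upk3b, Upk1b, Wt1, Gpm6a, Lrrn4, Muc16 and Pdpn. They were chosen by name as markers of mesothelium, with earlier results of these data known. They were found by matching Ensembl identifiers to gene symbols. All 8 were among the 30395 genes listed and among the 16446 tested, those with at least 1 CPM (reads scaled to a library total of 1000000) in at least 2 libraries, so the filter removed none of them.

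There were 4 groups of 2 libraries: Gli1+ cells taken 5 d after BDL (bile duct ligation, surgery that stops bile from leaving the liver), Gli1+ cells of uninjured liver, stellate cells taken 5 d after BDL, and stellate cells of uninjured liver. Every mouse was 8 weeks old, of the strain Mixed (C57BL/6, SWR/J) and of the genotype Gli1:CreER+/-; Ai9+/-, the stellate and uninjured groups included. CreER is a drug-inducible Cre recombinase, here driven by Gli1, and Ai9 is a reporter allele that turns on a red fluorescent protein after recombination. Cells were freed by perfusion with pronase and collagenase, passed over a density gradient and sorted straight into RNA buffer, and libraries came from SMART-Seq2, in which whole cDNA molecules are copied by PCR. Sort gates are not stated in the labels used. The labels do not tie the replicates to separate mice, so the p-values cover the spread between libraries alone, and this may be technical.

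Mesothelium is the flat epithelial sheet that forms the outermost layer of the liver surface, over the fibrous capsule, and lines the abdominal cavity. Its cells derive from mesoderm and carry features of epithelium (keratins, tight junctions, surface mucins) beside features of mesenchyme, and in the developing mouse liver mesothelial cells give rise to part of the stellate cells and fibroblasts. Several of the genes followed here encode surface proteins of this sheet: Msln encodes mesothelin, a lipid-anchored glycoprotein, and Muc16 encodes the large transmembrane mucin that carries the CA125 antigen and binds mesothelin.

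The libraries held 11261775 to 19180370 reads each, and 3 reads made 0.156 to 0.266 CPM. Gli1, the gene that drives the Cre, had 6.61 and 2.39 CPM in Gli1+ libraries after BDL and 14.9 and 7.59 CPM in uninjured Gli1+ libraries, while the 4 stellate libraries held 1 read of it in all. Lrat, which makes the retinyl esters that stellate cells store, was lower in Gli1+ than in stellate libraries both after BDL (log2 fold change -7.51) and without injury (-6.60), and passed the limma threshold in both. Gli1 passed it without injury (log2 fold change 3.55, limma adjusted p = 0.0151) and not after BDL (2.30, limma adjusted p = 0.0994). The libraries labelled Gli1+ and stellate thus differed in the direction of their labels for both genes, though Gli1 was not called after BDL.

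In GENCODE vM21 (build GRCm38, or mm10) the 8 genes lie on 7 chromosomes. Msln is at chr17:25748613-25754378 on the minus strand, Muc16 at chr9:18495455-18674530 (minus), Pdpn at chr4:143267431-143299564 (minus) and Upk3b at chr5:136038496-136046487 (plus). Upk1b is at chr16:38773184-38800328 (minus), Gpm6a at chr8:54954843-55060871 (plus), Lrrn4 at chr2:132868305-132880891 (minus) and Wt1 at chr2:105126529-105173616 (plus). The summed length of their annotated exons ran from 1817 bases for Pdpn to 26350 for Muc16, so levels are compared between genes only as CPM per kb of exon. Gpm6a contains 5 same-strand transcribed loci within its introns and Muc16 an opposite-strand RNA gene, none of which shares exon bases with its host. Whether read counting used strand is not known from the labels.

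Because the 8 transcripts moved together between the sorts, the 250 bases before the annotated starts were read from RefSeq (GRCm38.p6). Windows were held for 5 of the 8 genes (6 windows, since Gpm6a has 2 starts); those of Msln, Upk1b and Wt1 were not used here. The windows were searched on both strands for GGAATG (reverse complement CATTCC), the core bound by TEAD factors, which act in the promoter of the mesothelin gene in human cell lines. The core was present in 3 of the 6 windows, those below, against 12.6% of all 32851 windows of this length. The WT1 element GCGTGGGAG (reverse complement CTCCCACGC), also searched on both strands, was in 0 of the 6, against 0.405% of all windows. Both motifs were chosen after the windows had been read, and a match is a description of these letters only. The sequences run 5′ to 3′ on the strand of the gene, with the TEAD core in capitals.
Upk3b, chr5:136038246-136038495, plus strand: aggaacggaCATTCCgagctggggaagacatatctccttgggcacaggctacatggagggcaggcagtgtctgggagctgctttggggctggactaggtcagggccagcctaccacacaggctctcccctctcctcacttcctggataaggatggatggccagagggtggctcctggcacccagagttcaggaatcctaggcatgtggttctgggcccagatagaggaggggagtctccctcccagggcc
Gpm6a, upstream start, chr8:54779184-54779433, plus strand: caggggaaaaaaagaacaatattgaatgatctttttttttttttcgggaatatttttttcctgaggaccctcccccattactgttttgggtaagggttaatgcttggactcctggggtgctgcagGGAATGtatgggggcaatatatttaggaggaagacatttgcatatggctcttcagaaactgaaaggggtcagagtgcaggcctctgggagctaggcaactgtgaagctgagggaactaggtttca
Lrrn4, chr2:132880863-132881112, minus strand: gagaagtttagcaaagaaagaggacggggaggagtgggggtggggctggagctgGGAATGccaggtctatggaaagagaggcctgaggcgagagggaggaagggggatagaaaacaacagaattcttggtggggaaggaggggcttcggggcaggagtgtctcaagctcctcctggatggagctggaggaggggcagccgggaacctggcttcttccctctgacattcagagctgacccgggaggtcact
The core begins 241 bases before the RefSeq start of Upk3b, 125 bases before the upstream start of Gpm6a and 196 bases before the start of Lrrn4. The Gpm6a window stands well upstream of the GENCODE start given above, and the other Gpm6a window held no match.

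In every Gli1+ library each of the 8 transcripts was present at 87.9 CPM or more, and in every stellate library each was at 6.99 CPM or less. The sorts thus did not overlap for 8 of the 8 genes, where 34.8% of all tested genes were higher without overlap after BDL and 31.1% without injury. The 4 Gli1+ libraries held between 1091 and 44383 reads of a member, the 4 stellate libraries between 2 and 134. Summed over the 8 genes, they made up 0.278% and 0.230% of all CPM in Gli1+ libraries after BDL and 0.346% and 1.04% in uninjured Gli1+ libraries. In bulk libraries such as these, fewer cells of a type and less RNA per cell cannot be told apart.

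**Figure D1:**
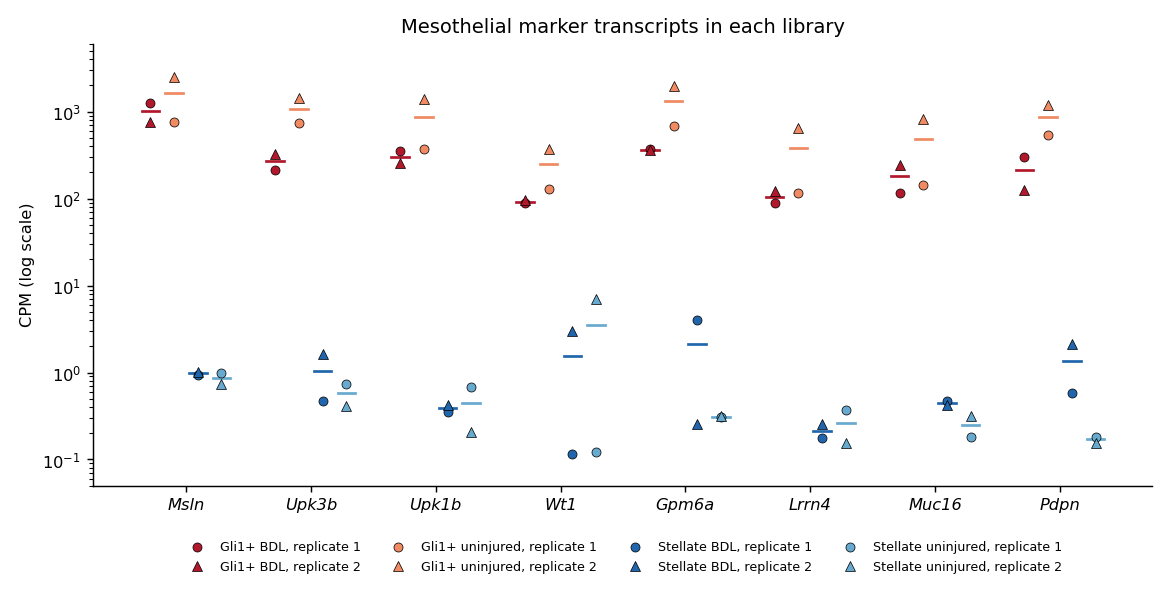
CPM (log scale) of the 8 mesothelial transcripts in each of the 8 libraries, circles for replicate 1 and triangles for replicate 2, with horizontal lines at the group means. Every Gli1+ point (red and orange, 87.9 CPM or more) lies above every stellate point (dark and light blue, 6.99 CPM or less), and in uninjured Gli1+ libraries the triangle is the higher point for all 8 genes.

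Msln had 1246 and 764 CPM in Gli1+ libraries after BDL and 768 and 2532 CPM in uninjured Gli1+ libraries. In stellate libraries it had 0.934 and 1.02 CPM after BDL and 0.979 and 0.730 CPM without injury, from 12 to 16 reads a library. The sorts did not overlap, whereas within the Gli1+ sort the BDL and uninjured libraries did, because uninjured replicate 1 stood as low as BDL replicate 2. The ratio of mean CPM, Gli1+ over stellate, was 1029 after BDL and 1932 without injury. Log2 fold changes were taken on the log2(CPM + 1) scale, where changes of genes near 0 come out too small. They were 8.95 ± 0.57 (SE, n = 2 libraries a group, limma adjusted p = 0.000507) after BDL and 9.56 ± 0.57 (limma adjusted p = 0.000126) without injury. By the same fit 4.44% of all tested genes were called higher in Gli1+ than in stellate libraries after BDL and 8.06% without injury, and 2.36% and 3.02% were called lower.

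Muc16 had 117 and 246 CPM in Gli1+ libraries after BDL and 143 and 820.0 CPM in uninjured Gli1+ libraries. It had 0.467 and 0.425 CPM in stellate libraries after BDL and 0.183 and 0.313 CPM in uninjured stellate libraries. As with Msln, the uninjured Gli1+ pair was spread over the widest range, and of the BDL pair 1 library lay below that range and 1 within its lower part. The limma log2 fold change, Gli1+ over stellate, was 6.89 ± 0.84 after BDL (adjusted p = 0.00301) and 8.11 ± 0.84 without injury (adjusted p = 0.00088).

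Pdpn encodes podoplanin, a mucin-type membrane protein of mesothelium that is also made by lymphatic endothelium, and is the ligand of the platelet receptor encoded by Clec1b. It had 303 and 126 CPM in Gli1+ libraries after BDL and 535 and 1195 CPM in uninjured Gli1+ libraries. In stellate libraries it had 0.584 and 2.12 CPM after BDL, against 0.183 and 0.156 CPM without injury, the last 2 from 3 reads each. The Gli1+ BDL libraries were both below the uninjured ones, and the stellate BDL libraries both above theirs. The limma log2 fold change, Gli1+ over stellate, was 6.46 ± 0.66 after BDL (adjusted p = 0.00135) and 9.42 ± 0.66 without injury (adjusted p = 0.000228).

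The uroplakins are membrane proteins best known from the plaques of bladder urothelium, where a tetraspanin uroplakin pairs with a single-pass one. Upk3b, the single-pass uroplakin found in mesothelium, had 215 and 325 CPM in Gli1+ libraries after BDL and 732 and 1442 CPM in uninjured Gli1+ libraries. Stellate libraries had 0.467 and 1.61 CPM after BDL and 0.734 and 0.417 CPM without injury. Upk1b, a tetraspanin, had 350.4 and 255 CPM in Gli1+ libraries after BDL and 368 and 1387 CPM in uninjured Gli1+ libraries. It had 0.350 and 0.425 CPM in stellate libraries after BDL and 0.673 and 0.209 CPM without injury. For both genes the BDL libraries of the Gli1+ sort lay below the uninjured ones without overlap, narrowly so for Upk1b. Limma log2 fold changes, Gli1+ over stellate, were 7.08 ± 0.54 after BDL (adjusted p = 0.0006) and 9.36 ± 0.54 without injury (adjusted p = 0.000126) for Upk3b. For Upk1b they were 7.76 ± 0.66 (adjusted p = 0.000885) and 8.98 ± 0.66 (adjusted p = 0.000228).

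Gpm6a encodes a multi-pass membrane glycoprotein of the proteolipid family, first known from neurons. It had 370.4 and 361 CPM in Gli1+ libraries after BDL and 675 and 1971 CPM in uninjured Gli1+ libraries. Stellate libraries had 3.97 and 0.255 CPM after BDL and 0.306 and 0.313 CPM without injury, so 1 stellate library, BDL replicate 1, stood above the other 3. Lrrn4, a leucine-rich repeat membrane protein, had 87.9 and 124 CPM in Gli1+ libraries after BDL and 115 and 644 CPM in uninjured Gli1+ libraries. It had 0.175 and 0.255 CPM in stellate libraries after BDL and 0.367 and 0.156 CPM without injury. The Gli1+ BDL and uninjured libraries overlapped for Lrrn4 and not for Gpm6a. Limma log2 fold changes, Gli1+ over stellate, were 7.20 ± 0.72 after BDL (adjusted p = 0.00135) and 9.78 ± 0.72 without injury (adjusted p = 0.000228) for Gpm6a. For Lrrn4 they were 6.44 ± 0.84 (adjusted p = 0.0039) and 7.77 ± 0.84 (adjusted p = 0.00101), and the BDL call of Lrrn4 was lost without Gli1+ BDL replicate 1 (limma adjusted p = 0.0613) or replicate 2 (0.0526).

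Wt1, the zinc-finger transcription factor of the set, is needed for mesothelium, kidney and gonad to form. It had 88.3 and 95.5 CPM in Gli1+ libraries after BDL and 129 and 375 CPM in uninjured Gli1+ libraries. Stellate libraries had 0.117 and 2.97 CPM after BDL and 0.122 and 6.99 CPM without injury, from 2 and 35 reads and from 2 and 134 reads. Replicate 2 of each stellate group was thus well above replicate 1, and still far below every Gli1+ library. The ratio of mean CPM, Gli1+ over stellate, was 59.5 after BDL and 70.9 without injury, the lowest of the 8 genes in both. The limma log2 fold change was 5.46 ± 1.03 after BDL (adjusted p = 0.0164) and 6.21 ± 1.03 without injury (adjusted p = 0.00679).

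The calls of Wt1 were the least stable of the 8. Without uninjured Gli1+ replicate 2 the uninjured comparison gave a limma adjusted p of 0.0594. The BDL comparison gave limma adjusted p-values of 0.143 and 0.125 without Gli1+ BDL replicate 1 and replicate 2, and of 0.145 and 0.0581 without stellate BDL replicate 1 and replicate 2. With edgeR on the recovered reads the adjusted p was 0.154 after BDL and 0.0929 without injury, and limma with no filter on low values gave 0.0642 after BDL. In each of these settings the direction was the same.

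**Figure D2:**
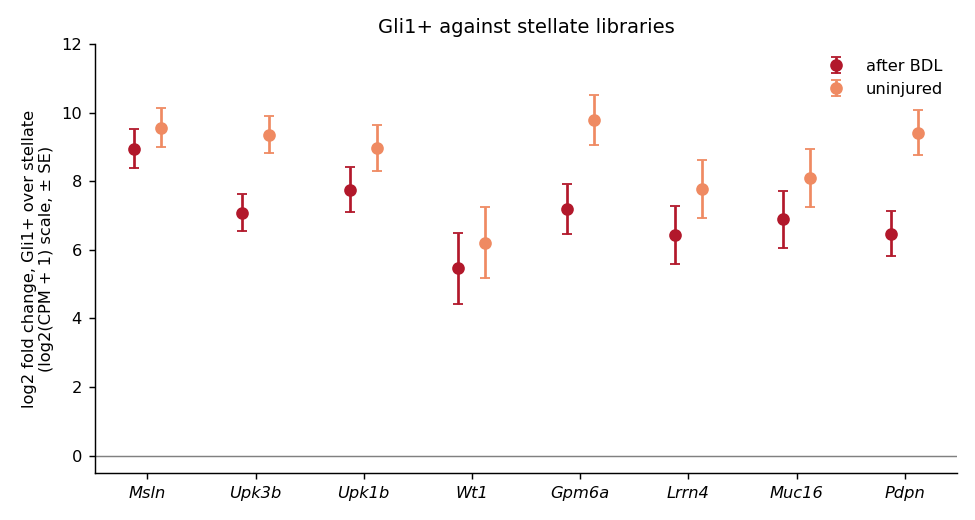
Log2 fold change of each gene, Gli1+ over stellate libraries, on the log2(CPM + 1) scale, after BDL (red) and in uninjured liver (orange), with the standard error of the limma fit as bars. All values lie between 5.46 (Wt1 after BDL) and 9.78 (Gpm6a without injury).

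Over the 8 genes the median log2 fold change, Gli1+ over stellate, was 6.98 after BDL and 9.17 without injury, beside 0.23 and 0.32 over all tested genes (0.09 and 0.14 after TMM scaling). All 8 were called in each comparison, against the backgrounds of 4.44% and 8.06% given above. When only the 4 uninjured libraries entered the fit, 0 of the 8 passed in that comparison, and so did 0 of all tested genes. The limma adjusted p-values of the 8 were 0.106 to 0.132, and 8 of 8 had an unadjusted p under 0.05. With edgeR, 7 of the 8 were called in each comparison, the exception being Wt1, where the share of all genes called higher was 2.13% after BDL and 5% without injury. With DESeq2 all 8 were called, where that share was 6.11% and 12.4%.

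Per kb of exon, Msln was the most abundant of the 8 in both Gli1+ groups. It averaged 328 ± 111 CPM per kb after BDL and 539 ± 407 CPM per kb without injury (SD, n = 2), which ranked 135 and 69 among all genes. In uninjured Gli1+ libraries Pdpn (476 ± 257 CPM per kb), Upk1b (420.1 ± 345), Gpm6a (411 ± 285) and Upk3b (308 ± 142) came next, and none of these neighbours differed by more than the spread between the libraries. Lrrn4 (102 ± 101), Wt1 (40.7 ± 28.1) and Muc16 (18.3 ± 18.2) ended the order. After BDL the order was Msln, Upk1b (145 ± 32.4 CPM per kb), Pdpn (118 ± 68.8), Gpm6a (114 ± 2.17), Upk3b (76.4 ± 22.1), Lrrn4 (28.5 ± 6.77), Wt1 (14.8 ± 0.832) and Muc16 (6.90 ± 3.46). By library, Pdpn (167 and 69.4 CPM per kb) overlapped Upk1b (168 and 122) and Gpm6a (115 and 112), while Upk1b stood above Gpm6a without overlap.

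Of the 32 values of the 8 genes in the 4 stellate libraries, 26 were under 1 CPM. As a share of the mean of the Gli1+ libraries in the same condition, the stellate values had a median of 0.0948% and ranged from 0.0181% to 3.24%, with 29 of 32 under 1%. The exceptions were Wt1 in replicate 2 of the BDL group (3.24%) and of the uninjured group (2.77%), and Gpm6a in stellate BDL replicate 1 (1.09%). In single stellate libraries some of the 8 transcripts were outside the proportions seen in the Gli1+ sort, and others were in or near them. Upk1b stood at 28.6% to 68.8% of Msln CPM in stellate libraries and at 28.1% to 54.8% in Gli1+ libraries. The source of these traces was not tested. Wt1 stood at 7.09% to 16.8% of Msln CPM in the 4 Gli1+ libraries, at 292% in stellate BDL replicate 2 and at 957% in uninjured stellate replicate 2, and at 12.5% in both stellate replicates numbered 1. Gpm6a stood at 29.7% to 87.8% of Msln in Gli1+ libraries and at 425% in stellate BDL replicate 1. Pdpn reached 208% and Upk3b 158% of Msln in stellate BDL replicate 2. All these stellate ratios rest on 12 to 16 reads of Msln.

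**Figure D3:**
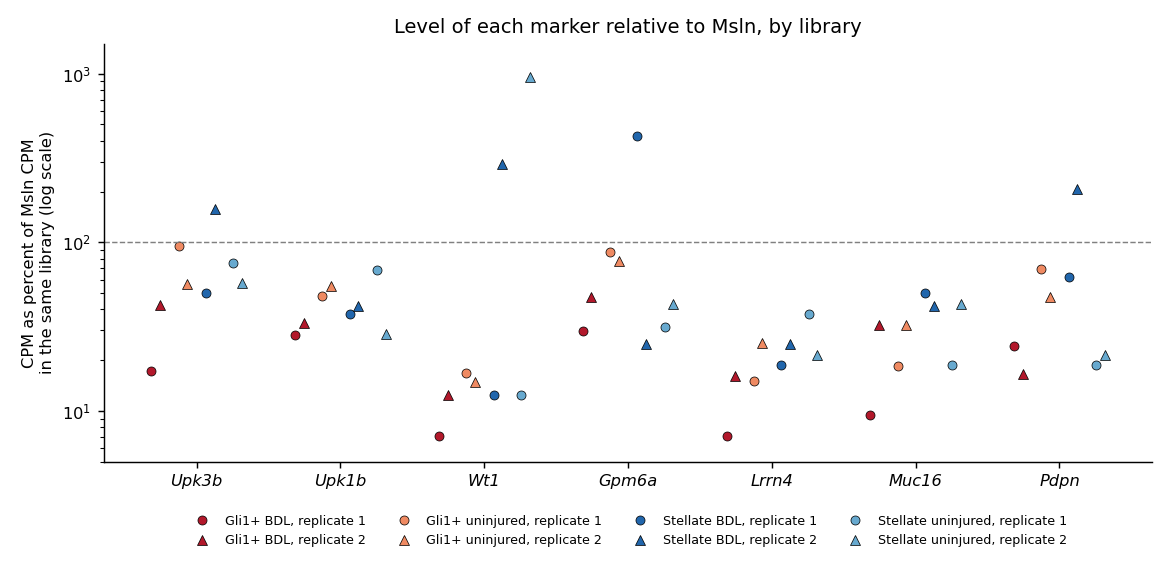
CPM of 7 genes as a percentage of Msln CPM in the same library (log scale, dashed line at 100%), colours and symbols by group and replicate. Wt1 in both stellate replicates numbered 2 (292% and 957%), Gpm6a in stellate BDL replicate 1 (425%), and Pdpn (208%) and Upk3b (158%) in stellate BDL replicate 2 lie above the line, and every Gli1+ point lies below it.

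Within the Gli1+ sort the proportions also shifted. In BDL replicate 1, where Msln was at 1246 CPM, 6 of the other 7 genes had their lowest share of Msln among the 4 Gli1+ libraries, from 7.06% for Lrrn4 to 29.7% for Gpm6a. Pdpn was the exception, at 24.3% there and at 16.5% in BDL replicate 2. Upk3b ranged most, from 17.2% of Msln in BDL replicate 1 to 95.2% in uninjured replicate 1.

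The uninjured Gli1+ libraries differed from each other for all 8 genes in the same direction. Replicate 2 exceeded replicate 1 by a factor of 1.97 for Upk3b, 2.23 for Pdpn, 2.91 for Wt1, 2.92 for Gpm6a, 3.30 for Msln, 3.77 for Upk1b, 5.59 for Lrrn4 and 5.75 for Muc16, with a median of 3.11. Of all tested genes 46.5% were higher in replicate 2, and their median log2 difference was 0. Of 14 cholangiocyte markers 2 were higher in replicate 2, of 14 portal fibroblast markers 2, of 14 stellate markers 4, of 10 blood endothelial markers 0, of 10 macrophage markers 1 and of 10 hepatocyte markers 1. Of 4 lymphatic markers 2 were higher in replicate 2, of 4 simple epithelial keratins 3 (median log2 difference 0.41) and of 13 other mesothelial genes 11 (1.05, beside 1.63 for the 8). Gli1 itself went the other way, with a ratio of replicate 2 to replicate 1 of 0.509. In the Gli1+ sort after BDL the replicates were closer, with 4 of the 8 genes higher in replicate 2 and ratios from 0.416 for Pdpn to 2.10 for Muc16.

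**Figure D4:**
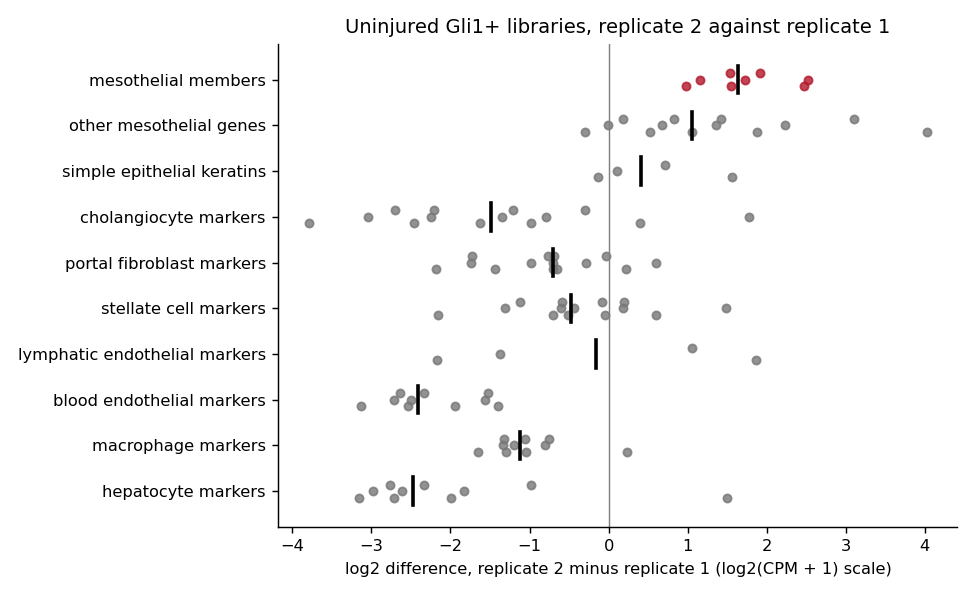
Difference between the 2 uninjured Gli1+ libraries (replicate 2 minus replicate 1, log2(CPM + 1) scale) for each gene of the mesothelial set (red) and of 9 other marker lists (grey), with black bars at the list medians. All 8 mesothelial points are above 0 (median 1.63), other mesothelial genes (1.05) and simple epithelial keratins (0.41) have medians above 0, and cholangiocyte (-1.49), blood endothelial (-2.42), macrophage (-1.13) and hepatocyte (-2.47) medians are below 0.

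After BDL all 8 transcripts had lower means in the Gli1+ sort than without injury, but none passed the test. In simulated data the test missed most 4-fold changes, so the lack of a call does not show equal levels. The ratio of mean CPM, BDL over uninjured, was 0.248 for Upk3b and for Pdpn, 0.276 for Gpm6a, 0.278 for Lrrn4, 0.345 for Upk1b, 0.365 for Wt1, 0.377 for Muc16 and 0.609 for Msln. Groups did not overlap for 5 of the 8 (Upk3b, Upk1b, Wt1, Gpm6a and Pdpn), beside 16.2% of all tested genes that were lower after BDL without overlap. In limma the log2 fold changes of the 3 genes with an unadjusted p under 0.05 were -2.03 ± 0.66 for Pdpn (adjusted p = 0.258), -1.96 ± 0.54 for Upk3b (adjusted p = 0.185) and -1.66 ± 0.72 for Gpm6a (adjusted p = 0.452). The other 5 lay between -1.38 for Lrrn4 and -0.52 for Msln, and the median over the 8 was -1.32, beside 0.12 over all tested genes. No gene of the whole table was called in this comparison (0% of 16446). With edgeR 0 of the 8 were called and 4 had an unadjusted p under 0.05; with DESeq2 1 was called, Upk3b (log2 fold change -2.08, adjusted p = 0.0267), beside 2.47% of all genes, and 5 had an unadjusted p under 0.05.

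The size of this difference depended on uninjured replicate 2, least so for Upk3b and Pdpn. Against uninjured replicate 1 alone, the BDL mean was 0.369 times as high for Upk3b, 0.401 times for Pdpn, 0.542 times for Gpm6a, 0.712 times for Wt1, 0.823 times for Upk1b and 0.918 times for Lrrn4, and it was higher for Muc16 (1.27 times) and Msln (1.31 times). Without uninjured replicate 2 the fitted log2 fold changes were 0.34 for Msln, 0.25 for Muc16 and below 0 for the other 6. Without uninjured replicate 1 they ran from -1.37 for Msln to -2.62 for Lrrn4. Upk3b, Pdpn and Gpm6a were the genes whose BDL libraries lay furthest below the lower of the uninjured ones.

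**Figure D5:**
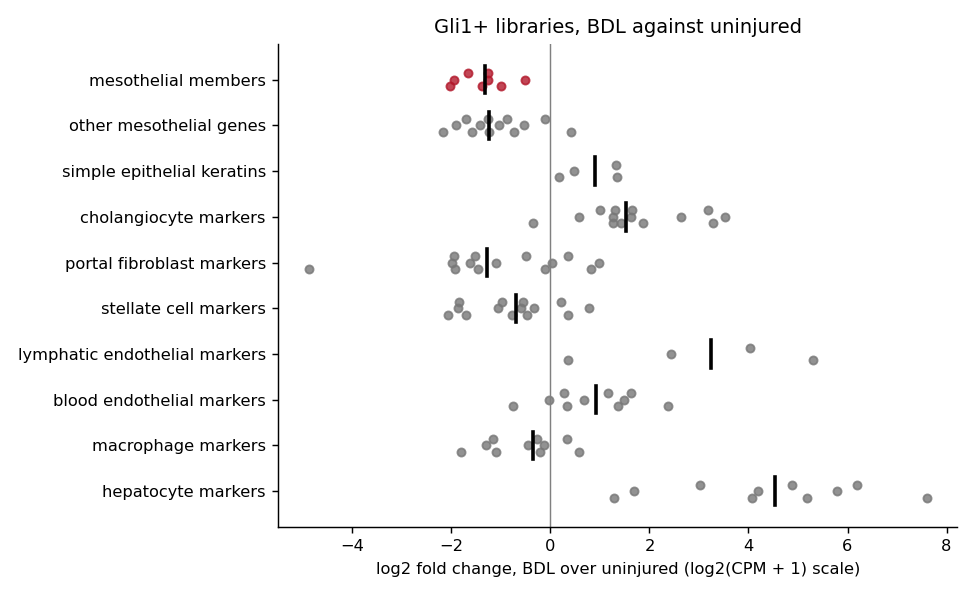
Log2 fold change in the Gli1+ sort, BDL over uninjured (log2(CPM + 1) scale), for each gene of the mesothelial set (red) and of 9 other marker lists (grey), with black bars at the list medians. The medians are -1.32 for the 8 genes, -1.23 for other mesothelial genes, -1.28 for portal fibroblast markers, 1.53 for cholangiocyte markers and 4.53 for hepatocyte markers.

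In the stellate sort the members stayed at traces in both conditions. Limma called 0 of the 8 between BDL and uninjured, with 0 at an unadjusted p under 0.05, beside 0.225% of all genes; edgeR called 0 (2 unadjusted) and DESeq2 called 1, Pdpn (adjusted p = 0.0445; 2 unadjusted), beside 6.12% of all genes. Only Pdpn and Muc16 were higher after BDL without overlap, as were 27.4% of all tested genes. On the log2(CPM + 1) scale large ratios between values this low come out as small changes, so these limma results do not show equal levels. Pdpn averaged 1.35 CPM after BDL and 0.170 CPM without injury, and its limma log2 fold change was 0.93 (adjusted p = 0.648). The stellate side could move little on that scale. The difference between the BDL responses of the 2 sorts, Gli1+ minus stellate, thus in large part repeated the Gli1+ change (median -1.32). It was below 0 for all 8 genes, with a median of -1.27 beside -0.12 over all genes. That direction rested on single libraries. Without uninjured Gli1+ replicate 2 it was below 0 for 5 of the 8, with Msln at 0.25, Muc16 at 0.04 and Wt1 at 0.02 and 0 at an unadjusted p under 0.05. It was below 0 for 7 of the 8 without stellate BDL replicate 2 or uninjured stellate replicate 1, with Wt1 at 0.17 and 0.67. None was called by limma, where 3 had an unadjusted p under 0.05 and 0.0122% of all genes were called. The estimates of those 3 were -2.95 for Pdpn (adjusted p = 0.505), -2.59 for Gpm6a (0.607) and -2.28 for Upk3b (0.538). EdgeR called 0 of the 8 in this difference (3 unadjusted), and DESeq2 called 2, Pdpn (adjusted p = 0.00243) and Gpm6a (0.0248), beside 2.37% of all genes. The stellate side of both genes is at most 68 reads a library, and without stellate BDL replicate 1 the Gpm6a estimate was -1.59 (limma adjusted p = 0.948).

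Other genes known from mesothelium were also higher in the Gli1+ sort. They were listed with earlier results of these data known, so their calls are a description and not independent support. Of 14 listed by name, 13 were in the table (Calb2 was not among the genes used), and 12 of the 13 were called higher in Gli1+ than in stellate libraries both after BDL (median log2 fold change 6.44) and without injury (7.93). Slpi, a secreted protease inhibitor, had 1645 and 2234 CPM in Gli1+ libraries after BDL and 1539 and 13199 CPM in uninjured Gli1+ libraries, against 2.69 and 25.9 CPM in stellate libraries after BDL and 2.20 and 2.45 CPM without injury. Igfbp5, which binds insulin-like growth factors, had 224 and 1129.5 CPM in Gli1+ libraries after BDL and 2275 and 2264 CPM in uninjured ones. Cldn15, a tight-junction claudin, had 73.1 and 101 CPM in Gli1+ libraries after BDL and 225 and 468 CPM in uninjured ones. The gene not called was Efemp1, a matrix glycoprotein, at 487 and 321 CPM in Gli1+ libraries after BDL, where stellate libraries had 438 and 489 CPM, and at 1429 and 1158 CPM in uninjured Gli1+ libraries, where stellate libraries had 1205 and 1733 CPM. Without any 1 BDL library fewer of the 13 were called after BDL, as were fewer of all tested genes. When only the 4 uninjured libraries were fitted, 0 of the 13 and 0 of all tested genes passed in the uninjured comparison. Between BDL and uninjured Gli1+ libraries 0 of the 13 were called, and 12 had values below 0, the exception being Anxa8 at 0.42.

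By profile over the 8 libraries, the genes nearest to the mean of the 8 members were Nkain4, Cd200, Pkhd1l1, Dmkn and Rspo1. Likeness was the mean absolute difference from the centred mean profile in log2 units, among 9870 genes with at least 20 CPM in a group mean. It was 0.256 for Nkain4, 0.312 for Cd200, 0.334 for Pkhd1l1, 0.423 for Dmkn and 0.430 for Rspo1. The members themselves, which made up that mean, lay between 0.318 (Upk1b) and 1.04 (Wt1). Of the 5 genes nearest, all but Cd200 were on the list of other mesothelial genes. That list was chosen with earlier results of these data known, so the overlap is a description only. Cd200, a membrane glycoprotein of the immunoglobulin superfamily, had 118 and 141 CPM in Gli1+ libraries after BDL and 231 and 369.6 CPM in uninjured Gli1+ libraries. In stellate libraries it had 0.117 and 0.680 CPM after BDL and 0.122 and 0.156 CPM without injury, so it too separated the sorts without overlap.

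Relatives and partners of the 8 genes did not move as a group. Of 14 listed, 12 were in the table and 10 were tested, and the urothelial uroplakins Upk1a and Upk3a and the mesothelin-like gene Mslnl were at 2.75 CPM or less in every library. Limma called 4 higher and 1 lower in Gli1+ than in stellate libraries after BDL, and 3 higher (Lrrn4cl, Muc1 and Muc4) and 1 lower (Lrrn3) without injury. Lrrn3, of the same family as Lrrn4, had 0 and 2.34 CPM in Gli1+ libraries after BDL, against 54.3 and 37.0 CPM in the stellate ones. Without injury Lrrn3 had 0.0888 and 0.228 CPM in Gli1+ libraries, against 128 and 94.1 CPM in the stellate ones. The Muc4 call without injury was lost without uninjured Gli1+ replicate 1. The 5 calls after BDL became 3 with edgeR, beside 1118 calls over all tested genes that became 621. Without any 1 BDL library both counts were lower than in the main fit.

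Markers of other cells stood beside the mesothelial ones in the Gli1+ libraries. The 4 keratins of simple epithelia, shared by mesothelium and bile duct, were all called higher than in stellate libraries in both conditions, with sums of 7054 and 2981 CPM in Gli1+ libraries after BDL and 2321 and 3569 CPM in uninjured ones, against 1.93 to 74.7 CPM in stellate libraries. Of 14 cholangiocyte markers 12 were called higher after BDL and 9 without injury, with sums of 13591 and 6973 CPM in Gli1+ libraries after BDL and 3547 and 1286 CPM in uninjured ones, against 77.3 to 956 CPM in stellate libraries. Spp1, 1 of the 14, had 10259 and 5167 CPM in Gli1+ libraries after BDL and 2140 and 259 CPM in uninjured ones. Bicc1, another, had 74.0 to 202 CPM in stellate libraries, so single genes weigh heavily in these sums. In uninjured Gli1+ replicate 2, 2 of the 14 (Sctr and Pkhd1) were at 0 and the other 12 were present. Bicc1 was the most abundant there, at 571 CPM. Of 14 portal fibroblast markers 12 were called higher after BDL and 14 without injury, with sums of 5549 and 4560 CPM in Gli1+ libraries after BDL and 14316 and 9941 CPM in uninjured ones, against 48.9 to 222 CPM in stellate libraries. Without any 1 BDL library fewer cholangiocyte and portal fibroblast markers were called after BDL, as were fewer of all tested genes. All 14 stellate markers were called lower in both conditions. The part of other cells in the mesothelial values was not tested.

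Pdpn is also a marker of lymphatic endothelium. Where Pdpn had 303 and 126 CPM, in Gli1+ libraries after BDL, Prox1 had 19.7 and 32.9 CPM and Mmrn1 had 189.6 and 29.0 CPM. Prox1 is a transcription factor on the list of lymphatic markers. Where Pdpn had 535 and 1195 CPM, in uninjured Gli1+ libraries, Prox1 had 1.60 and 0 CPM and Mmrn1 had 0 and 2.63 CPM. Flt4 had 60.6 and 92.3 CPM after BDL and 40.1 and 84.3 CPM without injury, and Lyve1 had 140 and 50.9 CPM after BDL and 32.4 and 6.45 CPM without injury, both in Gli1+ libraries. Within the pairs the markers did not follow Pdpn in 1 direction: of the BDL pair, the library with more Pdpn had more Mmrn1 and Lyve1 and less Prox1 and Flt4, and of the uninjured pair it had more Mmrn1 and Flt4 and less Prox1 and Lyve1. These markers may not be particular to lymphatic cells here. Over the Gli1+ libraries Prox1 stood in the same order as the summed hepatocyte markers given below. In stellate libraries after BDL, Lyve1 had 95.6 and 37.0 CPM and Flt4 had 180 and 112 CPM, while Prox1 and Mmrn1 were at 2.92 CPM or less. The cells that made these transcripts, and the part of lymphatic cells in the Pdpn values, were not tested. The 4 lymphatic markers tested summed to 409.8 and 205 CPM in Gli1+ libraries after BDL and to 74.1 and 93.4 CPM in uninjured ones. Of these 4 (Ccl21a was not used here), limma called 2 higher in Gli1+ than in stellate libraries after BDL and 1 without injury. Without any 1 BDL library fewer of them were called after BDL, as were fewer of all tested genes. Of 10 markers each, limma called 0 and 1 for blood endothelium, 0 and 0 for macrophages, and 0 and 1 for hepatocytes. The lymphatic and blood endothelial calls without injury were lost when any library but uninjured Gli1+ replicate 2 or uninjured stellate replicate 1 was left out, and the hepatocyte call when uninjured stellate replicate 2 or uninjured Gli1+ replicate 1 was. The direction for macrophage markers without injury depended on which stellate library was used. Their summed CPM was 9514 in uninjured stellate replicate 1 and 49.3 in replicate 2. The log2 fold change of C1qb, Gli1+ over stellate, was 4.43 without stellate replicate 1 and -2.15 without replicate 2. For C1qc it was 5.95 and -2.13. Summed hepatocyte markers were at 2549.6 and 14122 CPM in Gli1+ libraries after BDL and at 1091 and 187 CPM in uninjured ones, the last being the library with the most mesothelial RNA.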

How the data were processed

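The authors deposited CPM, 1 column per library, headed normalized counts per the file headers. The tools FastQC, STAR 2.5.2b, featureCounts and DESeq2 and the build mm10 appear, with no roles, per the submitters' processing notes. Each value was a whole multiple of 1 read (100% of values, within 0.1 read), so whole reads were recovered for the count tests. Identifiers were matched to GENCODE vM21 (30233 of 30395).

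The main test was the limma-trend fit (R 4.3.3, limma 3.58.1) of log2(CPM + 1), with 4 group means over 8 libraries and 4 residual degrees of freedom. Benjamini-Hochberg adjustment was over all 16446 genes tested (threshold 0.05). In simulated data this fit missed most 4-fold changes, so a gene that was not called may still differ. Alternatives were edgeR 4.0.16, DESeq2 1.42.0, another pseudocount, filter and scaling, a replicate block, the libraries compared alone and each library left out.

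The members, gene lists and motifs were chosen with earlier results of these data known. The text names the 8 members, Gli1, Lrat, the 5 genes nearest in profile and up to 4 called genes a list and direction; Efemp1, Anxa8, Upk1a, Upk3a, Mslnl, Sctr, Pkhd1, Bicc1, Prox1, Mmrn1 and Flt4 were named after their values were seen. Floors of 3 reads cover counting error only, since PCR copies are not independent molecules.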

Additional observations from a re-analysis of the deposited data

Results flagged for a closer look

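Pdpn was the gene whose libraries moved in opposite directions after BDL in the 2 sorts. In the Gli1+ sort it had 303 and 126 CPM after BDL, both below the 535 and 1195 CPM of uninjured libraries, and in the stellate sort 0.584 and 2.12 CPM after BDL, both above the 0.183 and 0.156 CPM of uninjured libraries. The difference of the responses, Gli1+ minus stellate, was -2.95 on the log2 scale, with an adjusted p of 0.505 by limma, 0.272 by edgeR and 0.00243 by DESeq2. The stellate values rest on 10 and 25 reads after BDL and on 3 and 3 reads without injury.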

How the results depend on the processing

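The 8 genes kept a higher level in Gli1+ than in stellate libraries under every alternative run. In uninjured liver 8 were called in the main fit, 0 when only the 4 libraries compared were fitted, and 7 to 8 when 1 library was left out. After BDL 8 were called, 6 to 8 when 1 library was left out. DESeq2 called 1 member between BDL and uninjured in Gli1+ libraries, 1 in stellate libraries and 2 in the difference of the responses, where limma called 0 in each, also with any 1 library left out. A fit that leaves a group with 1 library assumes that it varies like the others. For BDL in the Gli1+ sort, Msln (0.34) and Muc16 (0.25) changed sign without uninjured Gli1+ replicate 2, against -1.37 and -2.26 without replicate 1. The difference of responses was below 0 for 8 members, and for 5 to 8 without 1 library. The stellate BDL values were below 0 for 3, and for 1 to 4 without 1 library. Of other genes named by rule, C1qb without injury was at -1.18 with edgeR, -1.17 with DESeq2 and -2.15 and 4.43 without uninjured stellate replicate 2 and replicate 1, and C1qc was at -1.17, -1.16, -2.13 and 5.95. Lyve1 after BDL was at -0.22 without Gli1+ BDL replicate 1 and -0.18 without stellate BDL replicate 2, and at 1.22 without Gli1+ BDL replicate 2. The cause was not tested.

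Over all genes, the 1822 calls of the uninjured comparison became 810 with no filter, 1217 with edgeR, 2996 with DESeq2 and 0 with only the 4 libraries compared, and 1022 to 1808 without 1 library. The 1118 calls after BDL became 621 with edgeR, and 145 to 1375 without 1 library. For BDL against uninjured in Gli1+ libraries, 0 calls became 127 with no filter, 3 with a minimum of 5 CPM, 406 with DESeq2 and 0 to 5 without 1 library. In stellate libraries 37 calls became 6 with no filter, 23 with TMM scaling, 62 with edgeR, 1006 with DESeq2, 0 with only the 4 libraries compared, and 0 (without stellate BDL replicate 2) to 219 (without uninjured stellate replicate 1) without 1 library. In the difference of responses 2 became 0 with no filter, 11 with edgeR, 389 with DESeq2, and 0 to 33 (without uninjured stellate replicate 1) without 1 library.

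A replicate block left 8, 8, 0, 0 and 0 members called in the 5 contrasts. It moved the calls over all genes to 1566 and 943 in the comparisons of the sorts, 18 in the stellate BDL comparison and 0 in the difference of responses. Deviations of libraries with the same number correlated at -0.112 to 0.112 between groups. They were not above 0.1 in every pair, so the numbers were not taken to pair libraries. The highest values were between the sorts of the same condition, 0.112 after BDL and 0.0786 without injury. A rule over every pair cannot decide whether the sorts of a condition came from the same liver. Whether such libraries share a mouse or day is not given in the labels used. Depth limits the stellate values, where most members had under 20 reads a library.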

Other observations

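Within the introns of Gpm6a, 5 unclassified loci on its strand had reads in the Gli1+ sort. Gm45264 had 1.61 and 6.23 CPM in Gli1+ libraries after BDL and 8.26 and 17.9 CPM in uninjured ones, Gm45263 had 2.02 and 3.23 CPM and 7.90 and 10.4 CPM, and Gm45265 had 1.69 and 1.14 CPM and 9.95 and 10.4 CPM. No stellate library was above 0.170 CPM for any of the 5. Their share in the values of Gpm6a was not tested.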
